A study of Mus musculus with 6 samples.

Results

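Complex I, or NADH:ubiquinone oxidoreductase, is the entry point of electrons from NADH into the mitochondrial respiratory chain. Its matrix arm oxidises NADH in the N module and passes the electrons along iron-sulfur clusters to ubiquinone in the Q module, and its membrane arm pumps protons. The core subunits that carry out this chemistry are encoded partly in the nucleus and partly in mitochondrial DNA, accessory subunits surround them, and assembly factors build the complex without staying in it. Hepatocytes hold many mitochondria, and complex I there reoxidises the NADH made by fatty acid oxidation and the citric acid cycle. The genes described here are the 46 of 15565 in the count table whose symbol starts with Nduf, of which 38 are taken as subunits and the 8 Ndufaf genes as assembly factors. All 46 passed the filter on low counts that left 13288 genes to test. Symbols of mitochondrially encoded subunits are not among the rows, and these genes and Ndufb1 were not analysed here.

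The hepatocytes came from 3 mice of strain C57BL/6 aged 2 months, and each mouse gave a TERT(High) and a TERT(Low) population, so that 6 libraries form 2 groups of 3. All mice carried the tamoxifen-inducible recombinase CreERT2 at 1 copy of Tert and a Tomato reporter behind a loxP-stop-loxP (LSL) cassette at 1 copy of R26, written Tert(CreERT2/+); R26(LSL-Tomato/+), so both groups share the altered Tert allele. The labels name no treatment and do not state how the gate between high and low cells was set. Each library is RNA of a sorted population, and fewer cells of a type and less RNA per cell cannot be told apart.

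Library totals ranged from 53585174 to 64065266 counts in TERT(High) cells and from 55355819 to 76164917 counts in TERT(Low) cells. Tert, the catalytic subunit of telomerase, reached 0.560 ± 0.0543 CPM (counts scaled to a common library size) in TERT(High) cells, against 0.305 ± 0.0882 CPM in TERT(Low) cells (SD, n = 3 each), with an exact two-sided permutation p of 0.1, the smallest that 3 against 3 libraries allow. That test treats the libraries as independent and leaves out that they were paired by mouse. All 8 hepatocyte markers were detected, 1 of them was called lower (Asgr1, log2 fold change -0.71, edgeR adjusted p = 0.0485), and the values of Alb (0.41) and Cps1 (0.57) lay above 0 and those of Ttr (-0.69) and Apoa1 (-0.54) below it without passing. Their summed level, mostly Alb, was 117507 to 128869 CPM in TERT(High) cells, against 108445 to 128339 CPM in TERT(Low) cells. Markers of other liver cells were far lower but not equal between the groups. The 8 endothelial markers summed to 26.5 to 48.6 CPM in TERT(High) cells, against 21.1 to 22.8 CPM in TERT(Low) cells, and the 6 of 8 neutrophil markers in the table summed to 2.28 to 7.05 CPM in TERT(High) cells, against 0.272 to 1.56 CPM in TERT(Low) cells. Of the 8 endothelial markers, 2 were called higher, Kdr (edgeR adjusted p = 0.0277) and Lyve1 (edgeR adjusted p = 0.0452), and 0 lower, beside 4.43% and 3.71% of all genes tested. The 8 macrophage markers spanned 12.8 to 75.1 CPM in TERT(High) cells, against 10.7 to 33.7 CPM in TERT(Low) cells, and the 8 stellate markers 4.26 to 139 CPM in TERT(High) cells, against 4.37 to 10.4 CPM in TERT(Low) cells. The 4 of 8 cholangiocyte markers in the table spanned 9.09 to 15.0 CPM in TERT(High) cells, against 4.13 to 7.66 CPM in TERT(Low) cells, and the 5 erythroid markers 15.5 to 141 CPM in TERT(High) cells, against 31.9 to 51.9 CPM in TERT(Low) cells. The highest stellate and erythroid sums, 139 and 141 CPM, both came from TERT(High) replicate 1. Col1a1 alone made up 127 CPM of that stellate sum, and the median log2 fold change of the 7 stellate markers tested was 0.06. In TERT(High) replicates 2 and 3 the stellate sums were 4.26 and 5.71 CPM and the erythroid sums 20.9 and 15.5 CPM. The 6 of 8 T and NK cell markers in the table summed to 0.294 to 1.58 CPM in TERT(High) cells, against 0.191 to 1.46 CPM in TERT(Low) cells, and the 2 of 6 B cell markers to 0 to 0.261 CPM in TERT(High) cells, against 0 to 0.152 CPM in TERT(Low) cells. The part of these cells in the differences below was not tested.

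Complex I subunit RNA was lower in TERT(High) than in TERT(Low) hepatocytes across both arms of the complex. The summed level of the 38 subunits was 3120, 2998 and 3082 CPM in TERT(High) cells of mice 1, 2 and 3, against 4650, 4946 and 5193 CPM in their TERT(Low) cells. The ranges of the groups lay well apart, and the TERT(High) mean was 0.622 times the TERT(Low) mean. In edgeR's quasi-likelihood fit, with p-values adjusted by the Benjamini-Hochberg method over all genes tested, 25 of 38 subunits were lower at an adjusted p under 0.05, 0 were higher, and 13 did not pass. Of all genes tested 3.71% were lower and 4.43% were higher. The median log2 fold change of the subunits was -0.68, with a range from -0.93 to 0.31, beside a median of -0.01 over all genes tested. The TERT(High) libraries lay below all TERT(Low) libraries in 35 of 38 subunits, beside 15.9% of all genes tested, and 35 subunits were lower in all 3 mice, beside 26.6% of all genes tested. The median difference within a mouse was -0.58 in mouse 1, -0.76 in mouse 2 and -0.78 in mouse 3 on the log2 scale.

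**Figure D1:**
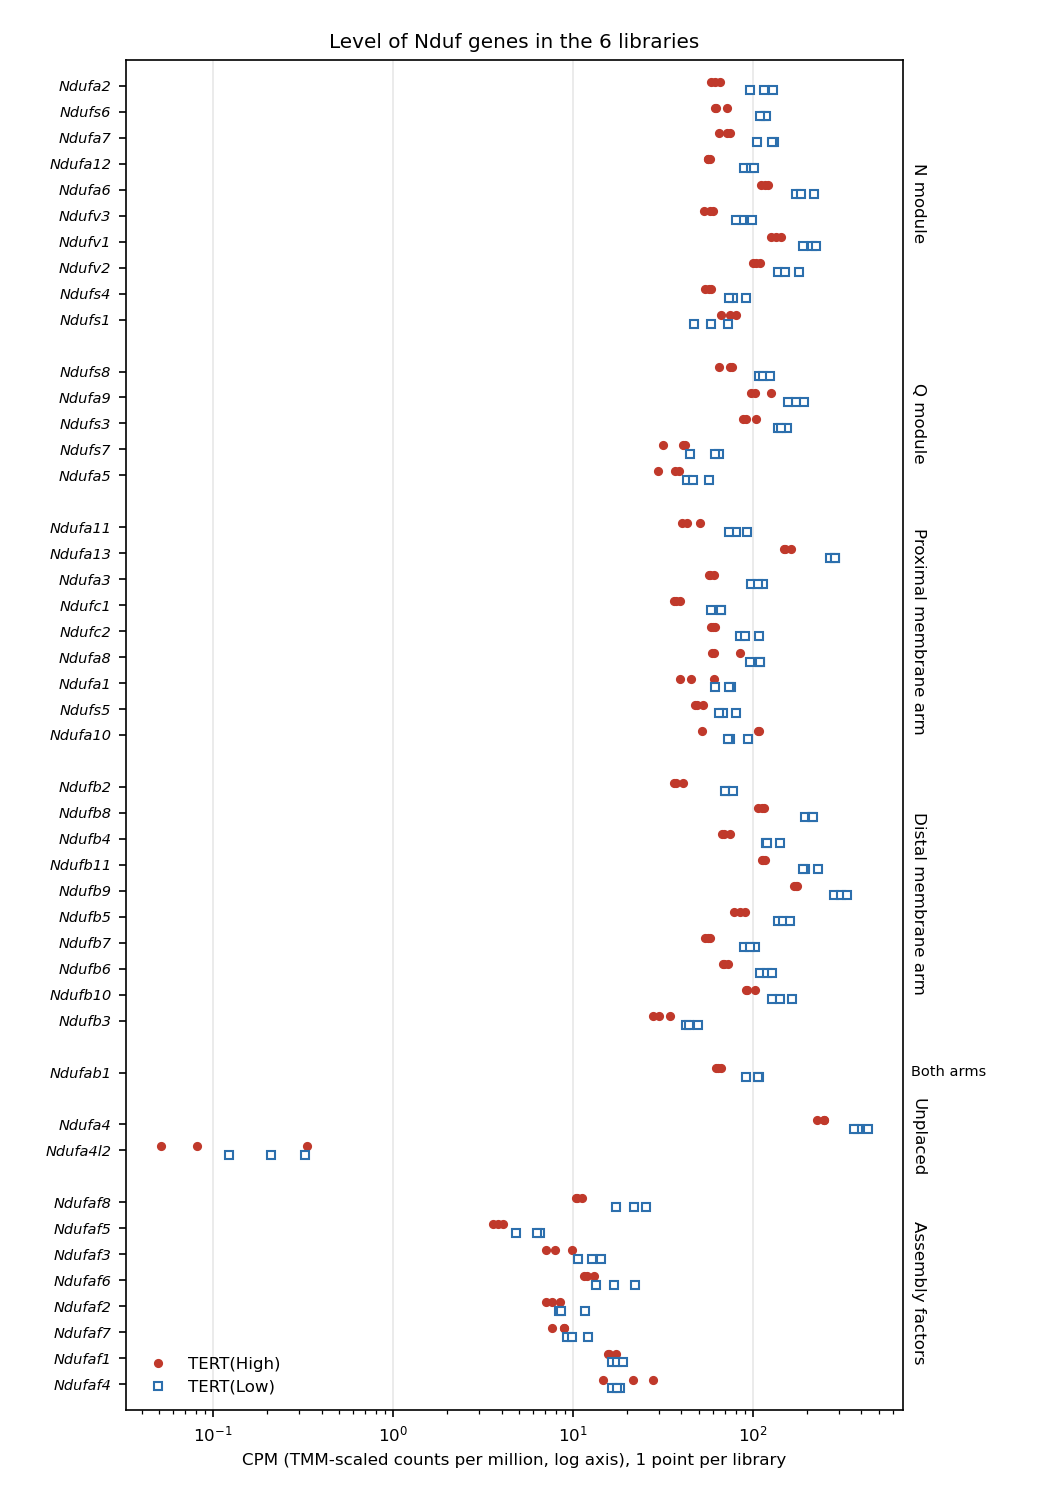
Level of the Nduf genes reported here in CPM (log axis), with 1 point per library, TERT(High) as filled red circles above TERT(Low) as open blue squares, grouped by arm of the complex. The red points of most subunits lie left of the blue ones, while those of Ndufs1, Ndufa10, Ndufa4l2, Ndufaf1, Ndufaf2 and Ndufaf4 overlap or lie to the right.

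These calls depended on which libraries were included and on how transcript length was treated. In edgeR, leaving out TERT(High) replicate 1 gave 27 subunits lower, beside 5.21% of all genes tested. Leaving out any other library or any mouse gave 0, and edgeR then called 0 genes of the whole table lower. DESeq2 with 1 library left out called 28 to 34 subunits lower, beside 5.87% to 12.3% of all genes tested. The median log2 fold change of the subunits stayed between -0.79 and -0.66 in these fits. When each library's counts were adjusted for transcript length and GC content, edgeR called 0 of 38 subunits lower and 0 of 12546 genes of the table, and the median log2 fold change of the subunits was -0.21. In that fit 6 subunits were lower at an unadjusted p under 0.05, beside 3.43% of genes lower and 8.24% higher, and 34 of 38 had a value below 0.

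Of the assembly factors 1 was called. Their summed level was 94.5, 82.2 and 89.3 CPM in TERT(High) cells, against 102, 114 and 121 CPM in TERT(Low) cells. Ndufaf8 alone of the 8 passed the test, beside 3.71% of all genes tested, and the median log2 fold change was -0.41. At an unadjusted p under 0.05, 4 of 8 were lower, beside 12.4% of all genes tested. The groups did not overlap in 5 of 8, with TERT(High) below, beside 15.9% of all genes tested, and 6 of 8 were lower in all 3 mice, beside 26.6%. DESeq2 called 3 of 8 lower, beside 9.6% of all genes tested, and edgeR with the length and GC adjustment called 0 of 8, with a median of -0.23 for transcript length and -0.31 for coding length, beside -0.21 and -0.25 for the subunits. Whether assembly factors and subunits differ in their change was not tested.

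Among the core subunits at the NADH end of the matrix arm, 1 passed the test. Ndufv1, which binds NADH and the flavin that takes its electrons, had 142, 134 and 126 CPM in TERT(High) cells, against 213, 224 and 189 CPM in TERT(Low) cells (log2 fold change -0.64, SE 0.14, edgeR adjusted p = 0.0417). Ndufs1, the largest core subunit and the carrier of several iron-sulfur clusters, had 80.0, 66.0 and 74.4 CPM in TERT(High) cells, against 58.4, 47.2 and 72.3 CPM in TERT(Low) cells. Ndufs1 was the only subunit with a higher value in TERT(High) cells of every mouse, beside 28.2% of all genes tested, although its groups overlapped and the difference did not pass (log2 fold change 0.31, SE 0.19, edgeR adjusted p = 0.346). Ndufv2, which holds a further iron-sulfur cluster beside Ndufv1, had 100, 104 and 109 CPM in TERT(High) cells, against 137, 151 and 181 CPM in TERT(Low) cells. Its groups lay apart, but the adjusted p of edgeR was 0.0618 (log2 fold change -0.58, SE 0.15).

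The ratio of Ndufs1 to Ndufv1 within a library does not depend on how libraries are scaled. It was 0.563, 0.492 and 0.590 in TERT(High) cells, against 0.274, 0.211 and 0.382 in TERT(Low) cells, with no overlap of the groups. Ndufv2 per Ndufv1, in contrast, overlapped, at 0.707, 0.774 and 0.867 in TERT(High) cells and 0.645, 0.675 and 0.957 in TERT(Low) cells. Ndufs1 had the highest log2 fold change of the subunits, so the separation of its ratio is not independent of that value. The share of all gene pairs that separate was not taken. The transcripts have 2590 nt for Ndufs1, 1661 nt for Ndufv1 and 1697 nt for Ndufv2, so only the first pair differs much in length. With the length and GC adjustment the log2 fold changes were 0.22 for Ndufs1, -0.33 for Ndufv1 and -0.62 for Ndufv2. With coding length they were -0.21 for Ndufs1, -0.49 for Ndufv1 and -0.50 for Ndufv2. Ndufs1 shares 489 nt of exon with Ino80dos and 9 nt with Eef1b2, both on the opposite strand, and without a stated strand setting of the counting their reads cannot be told apart from those of Ndufs1. Ino80dos had 10.2 ± 1.31 CPM in TERT(High) cells, against 7.46 ± 1.56 CPM in TERT(Low) cells (log2 fold change 0.45, edgeR adjusted p = 0.209), a level well below that of Ndufs1.

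**Figure D2:**
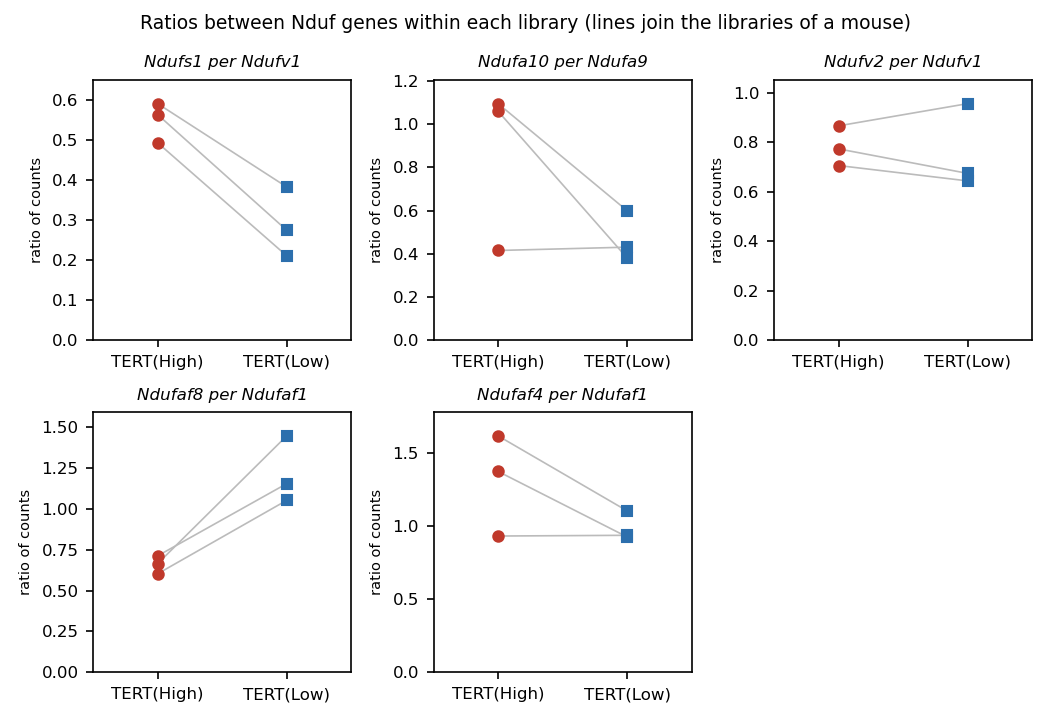
Ratios of counts between pairs of Nduf genes within each library, with TERT(High) (red circles) left of TERT(Low) (blue squares) and grey lines joining the libraries of a mouse. Ndufs1 per Ndufv1 and Ndufaf8 per Ndufaf1 separate the groups, while the other 3 ratios overlap. The pairs that separate hold the subunit with the highest and the member with the lowest log2 fold change. Their separation restates these values and is no further test.

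Core subunits of the Q module also lay lower in TERT(High) cells. Ndufs3, needed early in assembly of this module, had 104, 91.9 and 88.2 CPM in TERT(High) cells, against 138, 154 and 143 CPM in TERT(Low) cells (log2 fold change -0.62, SE 0.14, edgeR adjusted p = 0.0440). With the mouse as a block it missed the threshold at an edgeR adjusted p of 0.0504, and 4.3% of all genes tested were lower and 5.43% higher in that fit. Ndufs8, an iron-sulfur subunit, had 64.5, 76.6 and 74.0 CPM in TERT(High) cells, against 108, 114 and 125 CPM in TERT(Low) cells (log2 fold change -0.69, SE 0.14, edgeR adjusted p = 0.0377). Ndufs7, which carries the last iron-sulfur cluster before ubiquinone, had 31.7, 40.8 and 41.7 CPM in TERT(High) cells, against 44.8, 65.1 and 61.4 CPM in TERT(Low) cells. Its groups did not overlap, yet it did not pass (log2 fold change -0.58, SE 0.20, edgeR adjusted p = 0.110).

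The accessory subunits were lower in 21 of 31 cases, beside 3.71% of all genes tested, with a median log2 fold change of -0.76. By position, 7 of 10 genes of the N module passed (median -0.68), 5 of 9 of the proximal membrane arm (median -0.65) and 8 of 10 of the distal membrane arm (median -0.83). All 10 genes of the distal arm were lower in all 3 mice with no overlap of the groups, beside 26.6% and 15.9% of all genes tested. The summed level of the distal arm was 855, 814 and 858 CPM in TERT(High) cells, against 1372, 1452 and 1590 CPM in TERT(Low) cells. Differences between the arms were not tested.

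The largest decreases among accessory subunits came from both ends of the membrane arm and from the matrix arm. Ndufb2, a small membrane protein of the distal arm, had 41.0, 36.6 and 37.3 CPM in TERT(High) cells, against 70.8, 70.1 and 77.4 CPM in TERT(Low) cells (log2 fold change -0.93, SE 0.13, edgeR adjusted p = 0.0277). Ndufb8, also of the distal arm, had 116, 107 and 112 CPM in TERT(High) cells, against 195, 211 and 215 CPM in TERT(Low) cells (log2 fold change -0.90, SE 0.13, edgeR adjusted p = 0.0277). For both genes the TERT(High) libraries were close to each other and well below every TERT(Low) library. Ndufa11, of the proximal arm, had 51.0, 40.1 and 42.7 CPM in TERT(High) cells, against 80.1, 91.9 and 73.4 CPM in TERT(Low) cells (log2 fold change -0.88, SE 0.16, edgeR adjusted p = 0.0325). Ndufa13, also known as GRIM-19, had 163, 150 and 149 CPM in TERT(High) cells, against 268, 287 and 284 CPM in TERT(Low) cells (log2 fold change -0.86, SE 0.13, edgeR adjusted p = 0.0277). Ndufa2, an accessory subunit of the N module, had 58.2, 61.7 and 65.9 CPM in TERT(High) cells, against 96.1, 115 and 129 CPM in TERT(Low) cells (log2 fold change -0.87, SE 0.16, edgeR adjusted p = 0.0321). Each of these 3 genes again had all TERT(High) libraries below all TERT(Low) libraries.

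At the other end stood accessory subunits with small differences or a value above 0. Ndufa10, a proximal subunit with the fold of a nucleoside kinase, had 52.3, 108 and 106 CPM in TERT(High) cells, against 74.8, 72.7 and 94.1 CPM in TERT(Low) cells. TERT(High) replicate 1 was the lowest of all libraries and the other TERT(High) libraries the highest, and the difference did not pass (log2 fold change 0.14, SE 0.29, edgeR adjusted p = 0.781). Ndufa5, of the Q module, had 38.8, 29.5 and 36.6 CPM in TERT(High) cells, against 42.9, 46.6 and 56.8 CPM in TERT(Low) cells (log2 fold change -0.48, SE 0.18, edgeR adjusted p = 0.132). Ndufs4, whose loss in mice causes a Leigh-like encephalopathy, had 56.7, 54.3 and 58.6 CPM in TERT(High) cells, against 77.7, 73.1 and 91.7 CPM in TERT(Low) cells (log2 fold change -0.52, SE 0.14, edgeR adjusted p = 0.0698). In both, the TERT(High) libraries lay below the TERT(Low) ones, without passing the threshold.

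Ndufs5, a proximal subunit with 48.7, 47.4 and 52.5 CPM in TERT(High) cells against 68.2, 65.0 and 79.9 CPM in TERT(Low) cells, also lay apart without passing (log2 fold change -0.52, SE 0.14, edgeR adjusted p = 0.0678). Its count is uncertain, because the processed pseudogene BC002163 matches its coding sequence at 99.4% over 319 nt and is a row of the count table of its own. BC002163 had 60.1 ± 3.36 CPM in TERT(High) cells, against 86.8 ± 8.98 CPM in TERT(Low) cells, more than Ndufs5 itself, with a log2 fold change of -0.53 (edgeR adjusted p = 0.0630). In all, 7 members have 9 near-identical processed pseudogenes, of which the other 8 are not rows of the table.

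**Figure D3:**
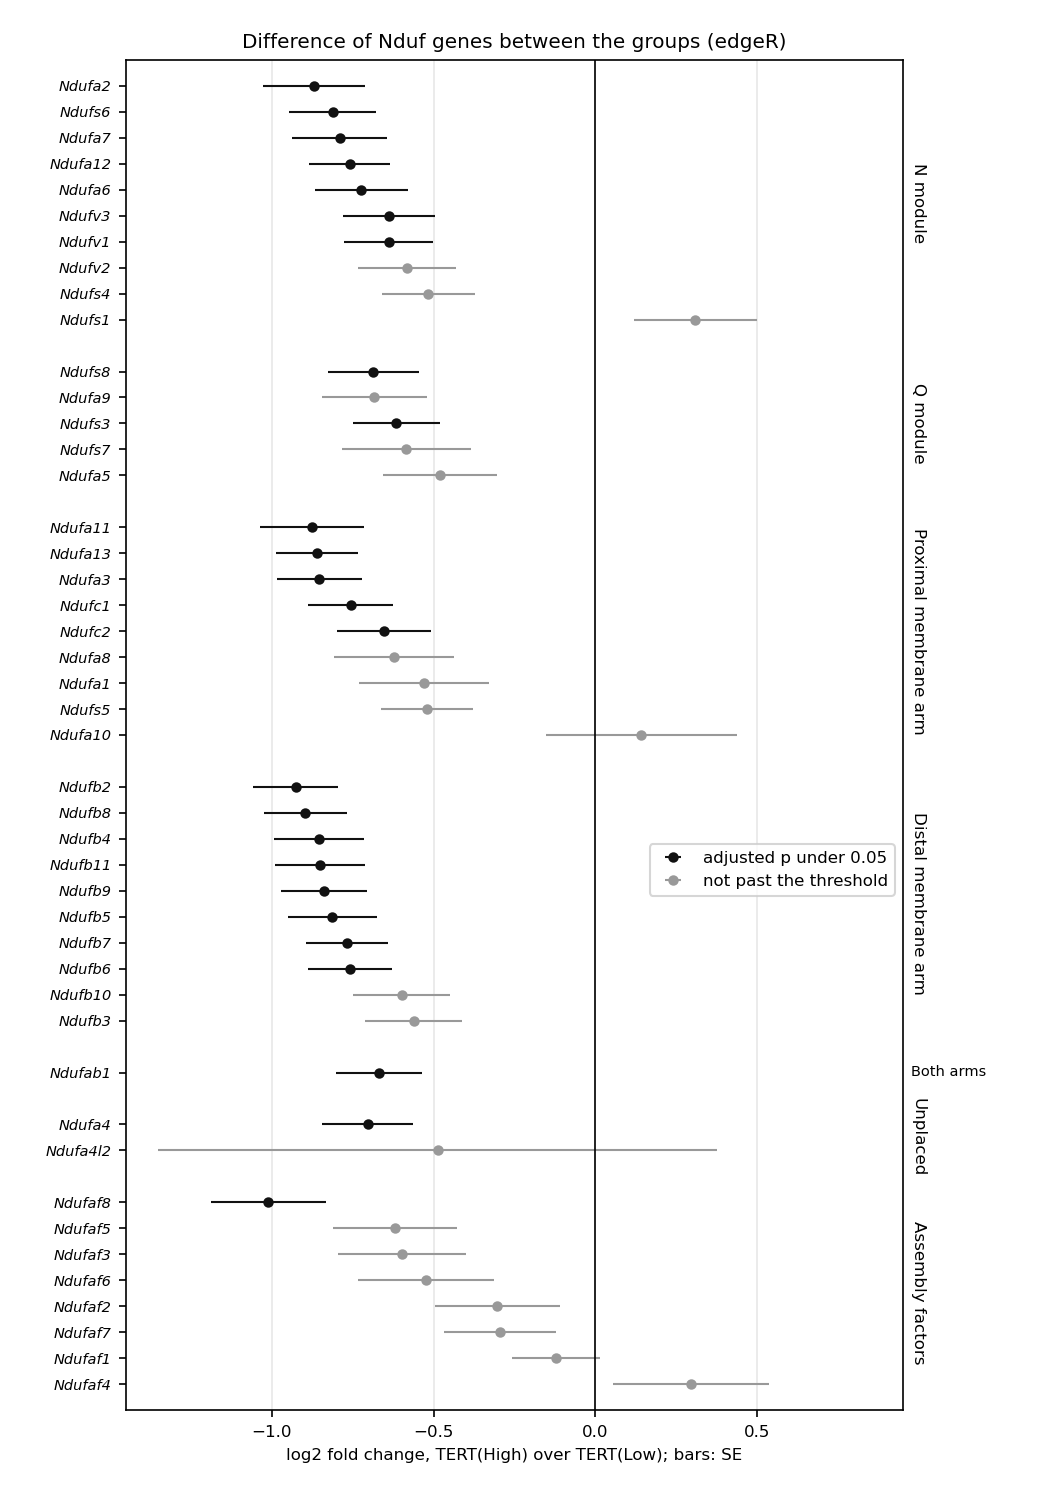
Log2 fold change of TERT(High) over TERT(Low) with its SE for the Nduf genes reported here, from edgeR, grouped by arm and ordered by size within an arm. Black points passed an adjusted p of 0.05 and grey points did not. Ndufs1, Ndufa10 and Ndufaf4 stand right of 0, and Ndufa4l2 has the widest error.

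Several members have a role outside complex I or a second one within the cell. Ndufa4, now assigned to cytochrome c oxidase (complex IV) although it keeps a complex I name, had 249, 226 and 249 CPM in TERT(High) cells, against 381, 366 and 433 CPM in TERT(Low) cells (log2 fold change -0.70, SE 0.14, edgeR adjusted p = 0.0365). Its hypoxia-induced relative Ndufa4l2 was near the limit of detection, with 5, 20 and 3 counts in TERT(High) cells and 9, 17 and 11 counts in TERT(Low) cells, and no direction can be read from it (edgeR adjusted p = 0.742). Ndufab1, the mitochondrial acyl carrier protein, is also bound in both arms of complex I and serves in fatty acid and iron-sulfur cluster synthesis. It had 66.8, 63.6 and 62.1 CPM in TERT(High) cells, against 91.9, 108 and 106 CPM in TERT(Low) cells (log2 fold change -0.67, SE 0.13, edgeR adjusted p = 0.0366).

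Levels of different genes were compared per kilobase of transcript. Ndufa4 was the most abundant at 534 CPM per kilobase in TERT(High) and 870 CPM per kilobase in TERT(Low) cells, followed by Ndufb9 at 245 CPM per kilobase in TERT(High) and 438 in TERT(Low) cells and Ndufa6 at 197 CPM per kilobase in TERT(High) and 325 in TERT(Low) cells. Ndufb9 and Ndufa6 are the subunits through which Ndufab1 attaches to the membrane arm and the matrix arm. Ndufb9 had 172, 169 and 175 CPM in TERT(High) cells, against 281, 310 and 333 CPM in TERT(Low) cells (log2 fold change -0.84, SE 0.13, edgeR adjusted p = 0.0277). Ndufa6 had 117, 111 and 121 CPM in TERT(High) cells, against 173, 185 and 217 CPM in TERT(Low) cells (log2 fold change -0.72, SE 0.14, edgeR adjusted p = 0.0364). The assembly factors stood far below these, from 3.28 to 25.0 CPM per kilobase in TERT(High) and from 4.79 to 50.4 CPM per kilobase in TERT(Low) cells.

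Ndufaf8 showed the largest decrease of all 46 genes. In human cells its protein stabilises NDUFAF5, the factor that hydroxylates an arginine of NDUFS7. Ndufaf8 had 10.4, 10.5 and 11.2 CPM in TERT(High) cells, against 17.4, 25.4 and 21.9 CPM in TERT(Low) cells, so that all TERT(High) libraries were below all TERT(Low) libraries (log2 fold change -1.01, SE 0.18, edgeR adjusted p = 0.0307). Ndufaf8 per Ndufaf1 within a library was 0.603, 0.665 and 0.712 in TERT(High) cells and 1.05, 1.45 and 1.15 in TERT(Low) cells, without overlap. As Ndufaf8 is the extreme of the members, this separation is not independent of its decrease. The transcripts of the pair differ in length, at 427 nt for Ndufaf8 and 1451 nt for Ndufaf1. With the length and GC adjustment the log2 fold changes were -0.36 for Ndufaf8 and 0.03 for Ndufaf1, or -0.37 for Ndufaf8 and -0.31 for Ndufaf1 with coding length. The authors' deposited table lists this gene, matched by its Entrez number 208501, with a log2 fold change of only -0.21 and an adjusted p of 0.663, while DESeq2 run on the deposited counts gave -1.03. The authors' deposited table holds 45 of the 46 members, and its log2 fold change had the same sign as that from the counts for all 45. By the authors' deposited table, 33 of 37 subunits and 1 of 8 assembly factors (Ndufaf3) were lower at an adjusted p under 0.05, beside 13.4% of its 10858 genes, and 0 members were higher.

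Ndufaf5 itself had 4.10, 3.58 and 3.81 CPM in TERT(High) cells, against 4.84, 6.55 and 6.26 CPM in TERT(Low) cells (log2 fold change -0.62, SE 0.19, edgeR adjusted p = 0.0896). Ndufaf7, a methyltransferase that acts in assembly, had 8.94, 8.85 and 7.67 CPM in TERT(High) cells, against 9.26, 12.1 and 9.85 CPM in TERT(Low) cells (log2 fold change -0.30, SE 0.17, edgeR adjusted p = 0.315). Neither passed, although the groups did not overlap in either gene.

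Ndufaf3 and Ndufaf4 encode partners that act together on the Q module, and their values pointed in different directions. Ndufaf3 had 7.03, 9.89 and 7.96 CPM in TERT(High) cells, against 10.7, 14.3 and 12.7 CPM in TERT(Low) cells (log2 fold change -0.60, SE 0.20, edgeR adjusted p = 0.103). Ndufaf4 had 27.8, 14.7 and 21.5 CPM in TERT(High) cells, against 18.2, 16.4 and 17.5 CPM in TERT(Low) cells (log2 fold change 0.29, SE 0.24, edgeR adjusted p = 0.480). The Ndufaf3 libraries separated by group and those of Ndufaf4 overlapped, and neither gene passed. With the length and GC adjustment the values were -0.26 for Ndufaf3 and -0.25 for Ndufaf4 when transcript length was used, but -0.08 for Ndufaf3 and 0.34 for Ndufaf4 when coding length was used.

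The other assembly factors did not pass either. Ndufaf1, part of the assembly complex that builds the membrane arm, had 17.2, 15.8 and 15.7 CPM in TERT(High) cells, against 16.5, 17.5 and 19.0 CPM in TERT(Low) cells (log2 fold change -0.12, SE 0.14, edgeR adjusted p = 0.603). Ndufaf2, which holds the place of Ndufa12 in late intermediates, had 7.59, 7.04 and 8.46 CPM in TERT(High) cells, against 8.30, 8.52 and 11.7 CPM in TERT(Low) cells (log2 fold change -0.30, SE 0.19, edgeR adjusted p = 0.362). The groups of both genes overlapped. Ndufaf6, needed early in assembly, had 11.4, 11.9 and 13.0 CPM in TERT(High) cells, against 16.9, 13.3 and 22.2 CPM in TERT(Low) cells, which lay just above (log2 fold change -0.52, SE 0.21, edgeR adjusted p = 0.160).

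The promoters of these genes are shown because many of the members moved together and because factors that act on nuclear genes for mitochondrial proteins have known binding letters. RefSeq promoter windows of 300 bases (250 before the annotated start and 50 from it, build GRCm38.p6) were at hand for 40 members in 42 windows. Printed are Ndufaf8 (chr11:120098684-120098983, plus strand) and Ndufb8 (chr19:44555393-44555692, minus strand), with large decreases. Also printed are Ndufa11 (chr17:56717512-56717811, plus strand) and Ndufaf4 (chr4:24897833-24898132, plus strand), which share an NRF1 motif. Ndufa11 was called lower, while Ndufaf4 had a value above 0 that did not pass. With the length and GC adjustment Ndufa11 stood at -0.23 and Ndufaf4 at -0.25 for transcript length, and at -0.28 and 0.34 for coding length. Capitals mark CCGGAAG (ETS factors, GABP among them) and AAGATGGC (YY1) in Ndufaf8, AAGATGGC in Ndufb8, TGACGTCA (cyclic AMP response element) and the palindromic NRF1 motif in Ndufa11, and the NRF1 motif in Ndufaf4.
Ndufaf8: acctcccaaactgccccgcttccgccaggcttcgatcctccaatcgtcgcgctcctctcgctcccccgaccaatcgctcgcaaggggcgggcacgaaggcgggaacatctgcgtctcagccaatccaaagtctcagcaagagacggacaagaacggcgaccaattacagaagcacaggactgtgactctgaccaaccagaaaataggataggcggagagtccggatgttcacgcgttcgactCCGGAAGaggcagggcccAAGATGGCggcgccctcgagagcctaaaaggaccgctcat
Ndufb8: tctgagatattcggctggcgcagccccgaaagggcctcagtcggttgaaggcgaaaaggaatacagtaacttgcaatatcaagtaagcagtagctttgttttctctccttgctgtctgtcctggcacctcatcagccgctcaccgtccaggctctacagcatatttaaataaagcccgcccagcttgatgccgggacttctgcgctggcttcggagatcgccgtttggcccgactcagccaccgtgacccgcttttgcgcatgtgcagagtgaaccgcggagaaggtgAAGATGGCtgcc
Ndufa11: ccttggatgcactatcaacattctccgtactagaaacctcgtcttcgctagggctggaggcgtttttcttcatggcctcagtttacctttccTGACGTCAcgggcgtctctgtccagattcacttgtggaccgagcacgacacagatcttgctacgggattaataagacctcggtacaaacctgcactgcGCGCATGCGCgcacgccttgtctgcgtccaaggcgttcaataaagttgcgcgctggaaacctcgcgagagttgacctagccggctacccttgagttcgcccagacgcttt
Ndufaf4: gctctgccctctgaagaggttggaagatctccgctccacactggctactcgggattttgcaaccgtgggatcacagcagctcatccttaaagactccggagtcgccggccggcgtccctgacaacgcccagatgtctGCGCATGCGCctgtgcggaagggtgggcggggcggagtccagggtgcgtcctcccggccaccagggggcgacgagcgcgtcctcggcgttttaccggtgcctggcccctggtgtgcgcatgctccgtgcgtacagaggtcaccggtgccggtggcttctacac

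Searched on both strands, AAGATGGC stood in 8 of 42 member windows (19.0%), beside 2.75% of the 32851 windows of all genes. The NRF1 motif stood in 3 member windows (7.14%), beside 0.971% of all windows, and its form with 1 free base, which includes every match of it, in 10 (23.8%), beside 4.6%. CCGGAAG stood in 14.3% of member windows and 8.86% of all windows, TGACGTCA in 7.14% of member windows and 1.79% of all windows, and CACGTG (the E box) in 7.14% of member windows and 7.15% of all windows. Of the 8 members with AAGATGGC, 5 were called lower and the median log2 fold change was -0.78, and of the 32 members without it 18 were called lower with a median of -0.64. Of the 3 with the exact NRF1 motif, only Ndufa11 was called lower, and of the 37 without it 22 were. Each of these counts stands beside 3.71% of all genes tested. Whether members with and without a motif differ was not tested. A match of letters is a description of the window and does not show that a factor binds there.

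The size of the difference went with transcript length among the members. The only 3 members with a value above 0, Ndufa10, Ndufs1 and Ndufaf4, have the 3 longest transcripts at 2020, 2590 and 3632 nt, beside a median of 820.5 nt for all 46 and 2759 nt for all genes with a coding transcript. Spearman's correlation across the 46 genes between log2 fold change and transcript length was 0.57, and 0.47 among the 43 with up to 2000 nt. With coding length it was 0.39 across the 46 and 0.31 across the 43. Across 12546 genes of the table it was 0.48 with transcript length and 0.52 with coding length, and genes are not independent replicates. The libraries themselves differed in this respect, because the slope of log2 CPM on log2 length over these genes, relative to the mean of all libraries, was 0.0858 to 0.213 in TERT(High) and -0.194 to -0.0827 in TERT(Low) libraries.

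Members and genes of the table were also set side by side within classes of transcript length, as a description with no test. Up to 500 nt, 5 of 6 members were lower (83.3%), beside 37.0% of all genes of that length. Over 500 and up to 1000 nt it was 14 of 22 (63.6%) beside 23.1%, up to 1500 nt 4 of 9 (44.4%) beside 9.05%, and up to 2000 nt 3 of 6 (50.0%) beside 2.86%. Above 2000 nt 0 of 3 members were lower, beside 0.583% of genes. Among genes of up to 2000 nt and at least 10 CPM, 26 of 39 members were lower (66.7%), beside 18.4% of all such genes.

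**Figure D4:**
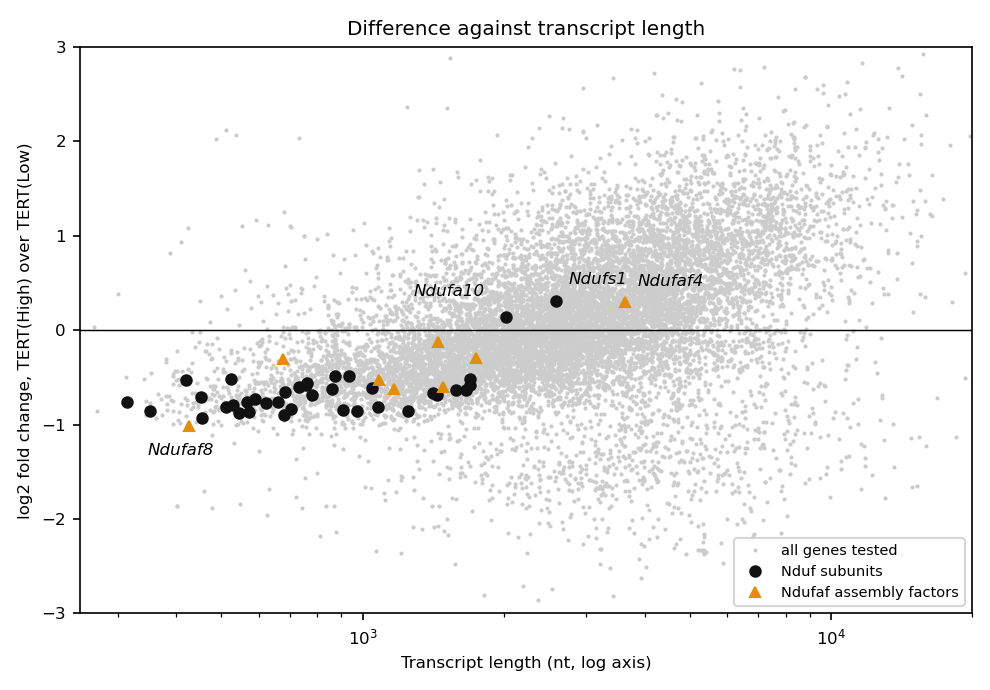
Log2 fold change of TERT(High) over TERT(Low) against transcript length in nt (log axis), for Nduf subunits (black circles), Ndufaf assembly factors (orange triangles) and all genes tested with a coding transcript (grey points, 20 of 12546 outside the axes). The grey cloud rises with length, and the members rise with it, with Ndufa10, Ndufs1 and Ndufaf4 the only members above 0. In each length class up to 2000 nt the member median lay below that of all genes. It was -0.80 beside -0.69 up to 500 nt, and -0.74 beside -0.55 over 500 and up to 1000 nt. Above 2000 nt it was 0.29 beside 0.22.

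After the adjustment for length and GC content the order of the members changed. For transcript length, the subunits lower at an unadjusted p under 0.05 were then Ndufv2 (log2 fold change -0.62), Ndufab1 (-0.53), Ndufs4 (-0.52), Ndufb5 (-0.49), Ndufa9 (-0.48) and Ndufb4 (-0.38), and none passed an edgeR adjusted p of 0.05. DESeq2 with the same adjustment called 1 subunit lower, Ndufb5 (adjusted p = 0.0123), beside 0.725% of genes lower and 2.55% higher. Ndufs1 stood at 0.22 and Ndufa10 at 0.29, neither of which passed, while Ndufb2 stood at -0.28 and Ndufaf8 at -0.36. With coding length in place of transcript length, Ndufs1 turned to -0.21 while Ndufa10 stood at 0.34, and the subunits lower at an unadjusted p under 0.05 were Ndufa9 (-0.60), Ndufv3 (-0.50), Ndufv2 (-0.50) and Ndufb5 (-0.46). Ndufab1 then stood at -0.19 and Ndufs4 at -0.34. Ndufb5 shares 616 nt of exon with Mrpl47 on the opposite strand, so its count is uncertain in the same way as that of Ndufs1, and in all 13 members share exonic bases with another gene of the count table.

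**Figure D5:**
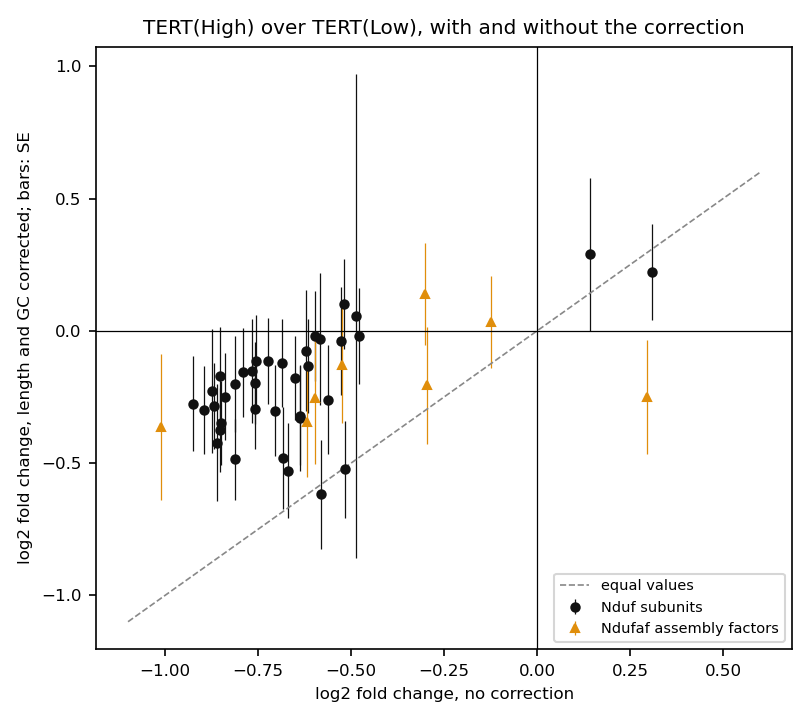
Log2 fold change of the Nduf genes reported here with the length and GC adjustment (vertical axis, bars are SE) against that without it (horizontal axis), with a dashed line for equal values. Most points lie above the line and nearer to 0, with a subunit median of -0.21 beside -0.68. Ndufaf4 crosses to below 0, while Ndufs5, Ndufaf1, Ndufaf2 and Ndufa4l2 cross to above 0.

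Other genes around complex I showed a mixed picture. Of 13 further assembly and maturation factors in the table, 2 were lower and 0 higher, beside 3.71% and 4.43% of all genes tested, with a median log2 fold change of -0.17. Foxred1, an oxidoreductase needed for complex I assembly, averaged 21.8 ± 1.21 CPM in TERT(High) cells, against 33.1 ± 2.50 CPM in TERT(Low) cells (SD, n = 3 each, log2 fold change -0.60, SE 0.13, edgeR adjusted p = 0.0460), and missed the threshold with the mouse as a block (edgeR adjusted p = 0.0504). Timmdc1, a membrane-arm assembly factor, averaged 24.7 ± 0.706 CPM in TERT(High) cells, against 37.3 ± 1.46 CPM in TERT(Low) cells (SD, n = 3 each, log2 fold change -0.60, SE 0.12, edgeR adjusted p = 0.0395).

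Of the enzymes and carriers that supply NADH to complex I, 0 of 15 were lower and 0 higher by edgeR. Of all genes tested 3.71% were lower and 4.43% higher, so a list of this size can hold 0 calls at these shares. The median log2 fold change of the list was -0.05. At an unadjusted p under 0.05 in edgeR, 2 of 15 were lower and 1 higher, beside 12.4% and 16.3% of all genes tested. DESeq2 called 2 of 15 lower and 0 higher, beside 9.6% and 11.3% of all genes tested. Glud1 (glutamate dehydrogenase), the one with the most counts irrespective of length, averaged 733 ± 169 CPM in TERT(High) cells, against 670 ± 132 CPM in TERT(Low) cells, and Got2 (mitochondrial aspartate aminotransferase) 421 ± 57.5 CPM in TERT(High) cells, against 437 ± 27.1 CPM in TERT(Low) cells (SD, n = 3 each).

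Among the other enzymes that feed electrons to ubiquinone, 3 of 12 were lower and 0 higher, beside 3.71% and 4.43% of all genes tested, with a median log2 fold change of -0.23. These were Sdhc and Sdhd, the membrane anchors of succinate dehydrogenase (complex II), and Etfb, a subunit of the electron transfer flavoprotein. Sdhc averaged 160 ± 24.6 CPM in TERT(High) cells, against 281 ± 26.3 CPM in TERT(Low) cells (SD, n = 3 each, log2 fold change -0.82, SE 0.17, edgeR adjusted p = 0.0376). Etfb averaged 289 ± 23.9 CPM in TERT(High) cells, against 499 ± 36.4 CPM in TERT(Low) cells (SD, n = 3 each, log2 fold change -0.79, SE 0.14, edgeR adjusted p = 0.0321). Sdhd averaged 207 ± 34.2 CPM in TERT(High) cells, against 349 ± 10.9 CPM in TERT(Low) cells (SD, n = 3 each, log2 fold change -0.76, SE 0.16, edgeR adjusted p = 0.0415).

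Of the factors that act on supercomplexes of complex I with other chain members, 3 of 4 were lower, beside 3.71% of all genes tested, and the median log2 fold change was -0.61. Cox7a2l, which joins complexes III and IV, averaged 87.8 ± 3.66 CPM in TERT(High) cells, against 134 ± 4.37 CPM in TERT(Low) cells (SD, n = 3 each, log2 fold change -0.61, SE 0.12, edgeR adjusted p = 0.0372). Higd1a had a log2 fold change of -0.70 (SE 0.14, edgeR adjusted p = 0.0375) and Uqcc3, an assembly factor of complex III, one of -0.61 (SE 0.13, edgeR adjusted p = 0.0426). With the mouse as a block Uqcc3 missed the threshold at an edgeR adjusted p of 0.0504. With the length and GC adjustment edgeR called 0 genes of any of these lists.

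Regulators of nuclear genes for mitochondrial proteins had values above 0 in most cases, but 0 of 14 passed edgeR in either direction. Beside them 3.71% of all genes tested were lower and 4.43% higher. Their median log2 fold change was 0.55, or 0.22 with the length and GC adjustment. At an unadjusted p under 0.05, 8 were higher, beside 16.3% of all genes tested, and DESeq2 called 4 higher, beside 11.3% of all genes tested. Those with the most counts irrespective of length were Nfe2l2, the oxidative stress regulator, at 40.1 ± 5.82 CPM in TERT(High) cells, against 27.4 ± 2.17 CPM in TERT(Low) cells, and Tfam, which packages and transcribes mitochondrial DNA, at 35.6 ± 1.18 CPM in TERT(High) cells, against 33.8 ± 5.53 CPM in TERT(Low) cells (SD, n = 3 each). The factors whose motifs were searched, named for that reason, were Nrf1 (log2 fold change 0.02, edgeR adjusted p = 0.973), Gabpa (0.55, edgeR adjusted p = 0.0936) and Yy1 (0.59, edgeR adjusted p = 0.0973).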

How the data were processed

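Polyadenylated RNA of 6 sorted hepatocyte populations was sequenced from stranded libraries (KAPA), per the labels' protocols. Trim Galore 0.4.0, TopHat2 2.0.13, DESeq2 and the genome mm10 are named in the submitters' processing notes, while the counting tool, strand setting and gene annotation were not given in the sources used here. The deposited count table holds unnormalized whole counts for each gene in each library, per the file headers. The authors' deposited table gives a log2 fold change and p-value per gene from DESeq2, whose direction was read from the counts, and the authors' mean signal (baseMean), linear fold ratio and test score per gene were not used.

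The members, gene lists and alternatives were chosen with earlier results of these data known. An item that enters the counts and medians is not reported here. Counts were tested with edgeR 4.0.16 in R 4.3.3 (genes kept by filterByExpr, TMM scaling, a robust quasi-likelihood fit with group as the only term), with Benjamini-Hochberg adjusted p under 0.05 over 13288 genes. CPM are TMM-scaled, and each SE was derived from the log2 fold change and its F statistic (their ratio, with F as a square root). The named members are the Ndufaf genes, the nuclear core subunits, the 5 largest and 5 smallest decreases of the rest, the 3 most abundant per kilobase, Ndufa4, Ndufa4l2 and Ndufab1, and of the other lists up to 4 genes past the threshold or else the 2 with the highest CPM. By the labels, libraries that share a number come from 1 mouse, and same-mouse deviations from the group means correlated at 0.13, 0.59 and 0.43, so a block for the mouse was fitted as an alternative. The common biological coefficient of variation was 40.7% without and 29.6% with it. Replicates are different mice. Further alternatives were DESeq2 1.42.0, limma-voom (limma 3.58.1), other scalings, filters and thresholds, left-out libraries, and an offset per gene and library from splines with 5 degrees of freedom on log2 transcript length and GC content.

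Transcripts were those with the longest coding sequence in GENCODE M21, coordinates and promoters those of RefSeq for GRCm38.p6 (the assembly of mm10), and pseudogene matches were searched with BLAST 2.17.0 at 95% identity over 100 nt. Only the fitting step was checked on simulated counts, which varied less than these data and held no length trend or pairing. Recovery was required only of edgeR and for changes larger than those of the members, so the check does not cover the calls reported here. Python 3.11.15, pandas 2.3.3, numpy 2.4.6, scipy 1.17.1 and matplotlib 3.10.9 were used.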

Additional observations from a re-analysis of the deposited data

How the results depend on the processing

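The median log2 fold change of the subunits stayed below 0 under the 29 alternatives that give a median (-0.79 to -0.21), as did that of the assembly factors (-0.51 to -0.22), while the number called depended on the setting. Of the members, 38 had values below 0 in every setting and 8 (Ndufa1, Ndufa10, Ndufa4l2, Ndufaf1, Ndufaf2, Ndufaf4, Ndufs1 and Ndufs5) had values on both sides of 0. With library totals alone edgeR called 0 genes lower of subunits, assembly factors, other assembly factors, ubiquinone entry and supercomplex lists, beside 0.143% of all genes. At an unadjusted p under 0.05, 28 subunits were lower in that fit, where the share of all genes at this threshold was not taken. The median of all genes was then 0.14, that of subunits -0.53 (-0.67 relative to all genes), other assembly factors -0.016, NADH sources 0.086, supercomplex factors -0.46 and regulators 0.71. With the length and GC adjustment edgeR called 0 lower in each of these lists, also with the replicate block and with coding lengths. The medians for transcript length, with the replicate block, for coding length and for DESeq2 with the adjustment (added after seeing the data) were -0.21, -0.23, -0.25 and -0.21 for subunits, -0.085, -0.10, -0.060 and -0.085 for other assembly factors, -0.16, -0.17, -0.084 and -0.17 for supercomplex factors, and 0.22, 0.21, 0.31 and 0.22 for regulators. The assembly factors moved to -0.22 with the replicate block there. That DESeq2 fit called 1 subunit, 0 assembly factors, 0 other assembly factors, 1 ubiquinone entry gene and 1 supercomplex factor lower (0.725% of all genes). It called 1 ubiquinone entry gene higher (2.55% of all genes). Uqcc3 turned to 0.084 with coding lengths. The cause of these changes was not tested.

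DESeq2 called 33 subunits, 3 assembly factors, 3 other assembly factors, 2 NADH sources, 4 ubiquinone entry genes and 4 supercomplex factors lower (9.60% of all genes). It called 1 other assembly factor, 1 ubiquinone entry gene and 4 regulators higher (11.3% of all genes). With the replicate block edgeR called 25 subunits (Ndufs3 among those lost, Ndufa9 and Ndufb10 gained), 1 assembly factor, 1 other assembly factor (Foxred1 lost), 4 ubiquinone entry genes and 2 supercomplex factors (Uqcc3 lost) lower. DESeq2 with the replicate block called 34 subunits, 2 assembly factors, 3 other assembly factors, 3 NADH sources, 5 ubiquinone entry genes and 4 supercomplex factors lower (11.1% of all genes). That fit called 1 other assembly factor, 1 NADH source, 1 ubiquinone entry gene and 4 regulators higher, beside 1632 of 13288 genes. limma-voom called 32 subunits, 1 assembly factor, 2 other assembly factors, 2 NADH sources, 3 ubiquinone entry genes and 4 supercomplex factors lower (8.30% of all genes). It called 1 other assembly factor, 1 ubiquinone entry gene and 3 regulators higher, beside 1358 of 13288 genes, with a ubiquinone entry median of -0.063. No filter left 20 subunits and 0 other assembly factors lower (2.16% of all genes). A mean CPM of at least 1 gave 27 subunits lower (6.59%) and 1 regulator higher, beside 876 of 10617 genes higher. An adjusted p under 0.1 gave 32 subunits, 2 assembly factors, 3 other assembly factors, 2 NADH sources, 4 ubiquinone entry genes and 4 supercomplex factors lower (8.56% of all genes). At that threshold 1 other assembly factor, 1 ubiquinone entry gene and 5 regulators were higher, beside 1421 of 13288 genes. The median of other assembly factors was -0.19 with DESeq2 size factors in edgeR, DESeq2 and limma-voom, -0.22 with upper-quartile scaling, -0.18 with the block and -0.21 with the block in DESeq2.

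Leaving out 1 library or 1 mouse gave 0 to 34 subunits lower and 0 to 3 assembly factors lower, the high ends with DESeq2 (28 to 34 subunits in its 6 fits, beside 5.87% to 12.3% of all genes, added after seeing the data). The same fits gave 0 to 4 other assembly factors lower and 0 to 1 higher (median -0.31 to -0.10), 0 to 3 NADH sources lower and 0 to 1 higher (median -0.19 to 0.0030), 0 to 4 ubiquinone entry genes lower and 0 to 1 higher (median -0.48 to -0.043), 0 to 4 supercomplex factors lower (median -0.74 to -0.57) and 0 to 6 regulators higher (median 0.43 to 0.60). Over all genes tested these fits called 0 to 1677 lower and 0 to 1704 higher. With edgeR alone, 24 to 35 subunits were lower at an unadjusted p under 0.05 in these fits. The share of all genes at that threshold was not taken for them, so this count has no background to be read against.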
